A study of Mus musculus with 9 samples.

Results

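Retinoid metabolism in the colonic mucosa was followed through 10 genes, chosen by symbol from a deposited RNA sequencing (RNA-seq) table of 54146 genes. They are the aldehyde dehydrogenases Aldh1a1, Aldh1a2, Aldh1a3 and Aldh1a7, the alcohol dehydrogenase Adh1, the short-chain dehydrogenases Rdh10, Dhrs9 and Dhrs3, the retinol-binding protein Rbp2 and the β-carotene oxygenase Bco1, and each had 1 row in the table. Mucosa was taken at 15 wk of age from 5 ApcMin/+ mice, 2 of them female, and from 4 ApcMin/+; p16cis/cis mice, 3 of them female, all C57BL/6J. Each mouse was 1 library. Every mouse of both genotypes carried the Min allele, a heterozygous germline mutation of Apc that starts intestinal adenomas, so the comparison has no group with intact Apc. The p16cis allele is a germline knock-in of a short DNA element that spreads methylation over the p16 promoter, and it was present on both chromosomes of the second genotype. According to the study's methods the RNA came from crypts, and the mucosa is described as normal-appearing. Values are normalized counts, that is, a gene's reads scaled by the mouse's size factor.

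Retinoids are vitamin A and its derivatives. Bco1 cleaves dietary β-carotene to retinal, Rbp2 binds retinol and retinal inside enterocytes, and Rdh10, Dhrs9 and Adh1 oxidize retinol to retinal, a reaction that Dhrs3 runs in the other direction. The Aldh1a enzymes Aldh1a1, Aldh1a2 and Aldh1a3 then oxidize retinal to retinoic acid in a step that is irreversible, and Aldh1a7 is a close paralog of Aldh1a1 in rodents. Retinoic acid binds RAR and RXR receptors in the nucleus and is cleared by Cyp26 enzymes. In the gut it is known for roles in epithelial differentiation and in the homing and tolerance of immune cells.

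Aldh1a1 and Aldh1a7 lie side by side on chromosome 19 of GRCm38, Aldh1a1 (ENSMUSG00000053279.7) from 20492715 to 20643465 on the plus strand and Aldh1a7 (ENSMUSG00000024747.3) from 20692953 to 20727562 on the minus strand. The genes are 49487 bases apart. They are shown here because they were the members that fell most, and their promoters share a stretch of sequence. RefSeq promoter windows on GRCm38.p6, running from 250 bases before to 50 bases after a transcription start, were available for 8 of the 10 members. The Aldh1a7 window and that of the downstream start of Aldh1a1, which lies in an intron of the longer Aldh1a1 transcripts, held an identical run of 65 bases at the same distance from the start, 94 to 30 bases upstream. The sequences below run from 150 to 10 bases upstream of each start on the gene's own strand, chr19:20601818-20601958 (plus strand) for Aldh1a1 and chr19:20727566-20727706 (minus strand) for Aldh1a7, with the shared run in capitals.
Aldh1a1: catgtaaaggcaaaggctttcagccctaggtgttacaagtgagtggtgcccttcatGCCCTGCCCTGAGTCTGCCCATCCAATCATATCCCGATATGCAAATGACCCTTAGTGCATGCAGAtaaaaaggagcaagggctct
Aldh1a7: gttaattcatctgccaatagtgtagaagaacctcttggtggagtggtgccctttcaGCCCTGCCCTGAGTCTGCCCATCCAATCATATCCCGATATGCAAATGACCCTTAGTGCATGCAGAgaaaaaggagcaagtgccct

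Over the whole windows 233 of 300 bases were identical in a global alignment, or 77.7%, against 50.3% to 64.0% between the Aldh1a7 window and each of the other member windows. The shared run holds a CCAAT box 72 bases upstream and the octamer ATGCAAAT, which does not overlap it, 56 bases upstream. Searched on both strands, the CCAAT letters were present in 37.4% of 32544 distinct promoter windows of the mouse. The octamer was present in 1.75%. Among the other members, the Aldh1a2 window also held the octamer, 84 bases upstream, and CCAAT, 36 bases upstream. Windows of Dhrs3 held CCAAT on the minus strand. A retinoic acid response element is often a direct repeat of the hexamer AGGTCA, which alone was in 16.2% of all windows. The windows of Dhrs9 and Rbp2 each held a single hexamer on the minus strand, 88 and 58 bases upstream. Neither AGGTCANNAGGTCA nor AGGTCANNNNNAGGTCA, each in 0.00922% of all windows, was in a member window. Only these exact letters were searched, so repeats with other letters would be missed. At so low a rate their absence from the member windows says little. The repeat AGGTCANAGGTCA, which nuclear receptors with RXR as partner can bind and which counts as 2 hexamers as well, was in 0.0399% of all windows and in 1 member window. That window belongs to Bco1, with the repeat on the minus strand 56 to 44 bases upstream of the start, in capitals in the plus-strand sequence of chr8:117095779-117095851.
Bco1: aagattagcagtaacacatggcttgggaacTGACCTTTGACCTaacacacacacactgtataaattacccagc

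Such matches describe letters and not binding.

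Libraries held 15745098 to 17885918 reads on genes in ApcMin/+ mice and 13523500 to 14900228 in ApcMin/+; p16cis/cis mice, without overlap. Mitochondrial genes took 8.74% to 15.6% of the reads in ApcMin/+ mice and 19.3% to 29.8% in ApcMin/+; p16cis/cis mice, without overlap, and genotype accounted for 78.1% of the variance of this share. Cdkn2a, the gene of p16, was listed at 0 in all 9 mice and so gives no check of the labels. The genotypes were compared by limma on log2(normalized count + 1) over 14410 genes, those that reached 10 normalized counts in 4 or more mice. A gene is called here when its Benjamini-Hochberg adjusted p over all genes tested is under 0.05 and its fold change is over 2. Differences and fold changes given below are log2 values of this kind, and those of genes with low counts come out too small. Single genes were also compared by a two-sided exact permutation test over all ways to split 9 mice into 5 and 4. Of the 10 members 9 could be tested, and Aldh1a2 was below the filter.

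Of the members, 2 were called lower in ApcMin/+; p16cis/cis mice, Aldh1a1 and Aldh1a7, against 1.64% of all genes tested, and 0 were called higher, against 1.83%. Without the fold threshold there were 2 members lower (8.75% of all genes) and 1 higher, Adh1 (8.14%). The edgeR and DESeq2 tests on the recovered reads also gave 2 lower and 0 higher past both thresholds. The other 6 members tested did not pass at an adjusted p under 0.05. Their log2 fold changes lay between -0.71 for Dhrs9 and 0.43 for Dhrs3, and the median over the 9 members was -0.34 beside -0.0041 over all genes. The plot of normalized counts by mouse gives every value behind these comparisons.

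**Figure D1:**
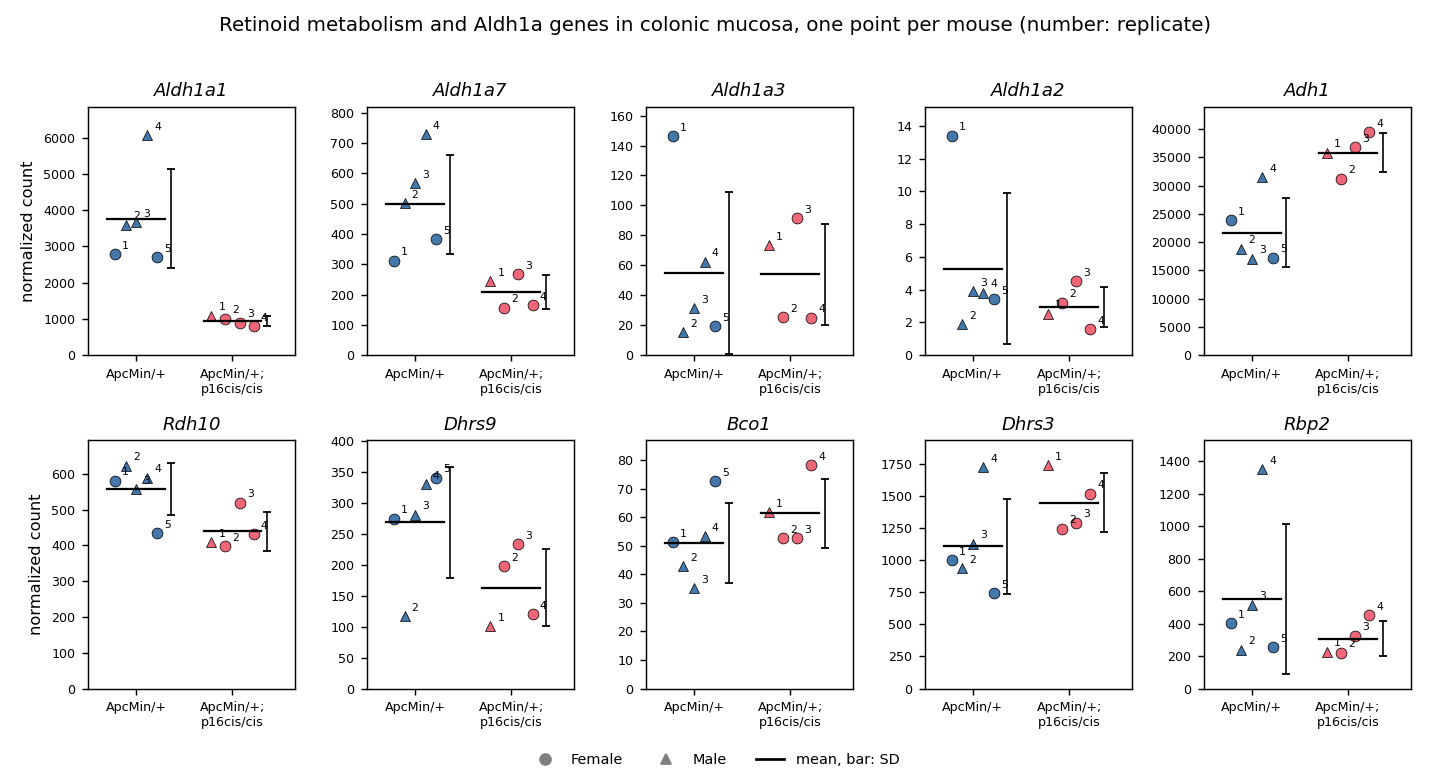
Normalized count (y axis, linear, from 0) of each of the 10 genes in each mouse, by genotype on the x axis, with blue points for ApcMin/+ mice and red points for ApcMin/+; p16cis/cis mice, circles for females, triangles for males, replicate numbers beside the points, a line at the mean and a bar of 1 SD to each side. Aldh1a1 and Aldh1a7 are the panels in which every ApcMin/+; p16cis/cis mouse lies below every ApcMin/+ mouse, and ApcMin/+ replicate 4 stands high for Aldh1a1 (6072) and Rbp2 (1352).

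The largest change among the members was in Aldh1a1, the cytosolic retinal dehydrogenase of many epithelia. Its normalized counts were 2781, 3600, 3660, 6072 and 2699 in ApcMin/+ replicates 1 to 5, and 1091, 1005, 897 and 793 in ApcMin/+; p16cis/cis replicates 1 to 4. The lowest ApcMin/+ mouse thus had more than double the count of the highest ApcMin/+; p16cis/cis mouse. The means were 3762 ± 1366 (SD, n = 5) and 946 ± 130 (SD, n = 4), and Aldh1a1 fell by 1.93 on the log2 scale (SE 0.21, 95% confidence interval -2.39 to -1.48, limma adjusted p = 0.00102). It ranked 10th of all genes by p and stayed past the Bonferroni threshold (adjusted p = 0.0102). The exact permutation test gave p = 0.00794, the smallest value that 5 mice against 4 allow. Because these are bulk libraries of many cells, fewer cells that express a gene and less RNA in each such cell cannot be told apart, here and below.

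Aldh1a7 changed in the same direction at a lower level. Normalized counts of 311, 501, 567, 730 and 383 were measured in ApcMin/+ mice, and 245, 156, 267 and 164 in ApcMin/+; p16cis/cis mice. The genotypes again did not overlap, although the gap between them was narrow, from 267 to 311. Aldh1a7 fell by 1.23 on the log2 scale (SE 0.25, 95% confidence interval -1.77 to -0.69, adjusted p = 0.00908), with means of 498 ± 163 (SD, n = 5) and 208 ± 56.2 (SD, n = 4) and an exact permutation p of 0.0159. Genotypes did not overlap for these 2 members, and such a gap with ApcMin/+; p16cis/cis mice lower was found for 8.95% of all genes. It was found with ApcMin/+; p16cis/cis mice higher for 0 members and 7.24% of all genes.

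Since the genotypes were not balanced for sex, both genes were compared within it. In females alone, Aldh1a1 differed by -1.61 (adjusted p = 9.01e-04), whereas Aldh1a7 differed by -0.86 and was no longer past the threshold (adjusted p = 0.0909). Among males there was a single ApcMin/+; p16cis/cis mouse, with 1091 for Aldh1a1 and 245 for Aldh1a7, below all 3 ApcMin/+ males. With the mitochondrial share as a covariate the difference of Aldh1a1 was -1.47 (adjusted p = 0.848) and that of Aldh1a7 was -0.09 (adjusted p = 0.976). In that fit 0 genes in either direction were called, and 798 had an unadjusted limma p under 0.05. Since the share separates the genotypes, their effects cannot be told apart here.

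The coding sequences of Aldh1a1 and Aldh1a7, both of 1503 bases, were identical at 91.6% of positions. Of all stretches of 50 bases of the Aldh1a1 coding sequence 10.4% were also found in Aldh1a7, and of all stretches of 100 bases 0.0712%. Reads that fit both genes could be split between them by the authors' counting, so Aldh1a7 is the less certain value of the pair, being the lower one. Aldh1a2 and Aldh1a3 shared no stretch of 50 bases with any of the other Aldh1a genes. Listed genes on the opposite strand that overlap Aldh1a1 had at most 6 reads in any mouse.

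Aldh1a3 and Aldh1a2 stood far below. Aldh1a3, which makes retinoic acid in many developing epithelia, had 146, 15.2, 31.2, 62.3 and 19.3 normalized counts in ApcMin/+ mice and 73.2, 25.5, 91.7 and 25.1 in ApcMin/+; p16cis/cis mice. The ApcMin/+; p16cis/cis values lay within the range of the ApcMin/+ values, and the difference was 0.23 with a 95% confidence interval from -1.13 to 1.60 (adjusted p = 0.83). The Aldh1a3 value changed sign with the test and with single mice left out. Aldh1a2, the main enzyme of retinoic acid synthesis in the embryo and in many stromal and dendritic cells, was close to the limit of detection, with 2 to 12 reads in ApcMin/+ mice and 1 to 3 reads in ApcMin/+; p16cis/cis mice. Its normalized counts were 13.4, 1.90, 3.90, 3.81 and 3.41 against 2.53, 3.19, 4.51 and 1.57, and a difference could not be detected with so few reads (exact permutation p = 0.389).

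Per kilobase of exons, the 4 Aldh1a genes together stood at 1017 ± 349 normalized counts in ApcMin/+ mice (SD, n = 5) and 306 ± 49.1 in ApcMin/+; p16cis/cis mice (SD, n = 4). Aldh1a1 made up 72.4% to 77.0% of this sum in ApcMin/+ mice and 54.6% to 71.1% in ApcMin/+; p16cis/cis mice, so the highest of the latter was below the lowest of the former. The share of Aldh1a7 was 23.8% ± 2.68 (SD, n = 5) and 32.7% ± 5.09 (SD, n = 4), respectively. Aldh1a2 and Aldh1a3 together took the rest. The length used was the union of all annotated exons of a gene, 4937 bases for Aldh1a1 and 2066 for Aldh1a7. The shares therefore depend on which transcripts are annotated. The bars of Aldh1a levels show the sum at 246 to 357 in the ApcMin/+; p16cis/cis mice and at 738 to 1598 in the ApcMin/+ mice, without overlap.

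**Figure D2:**
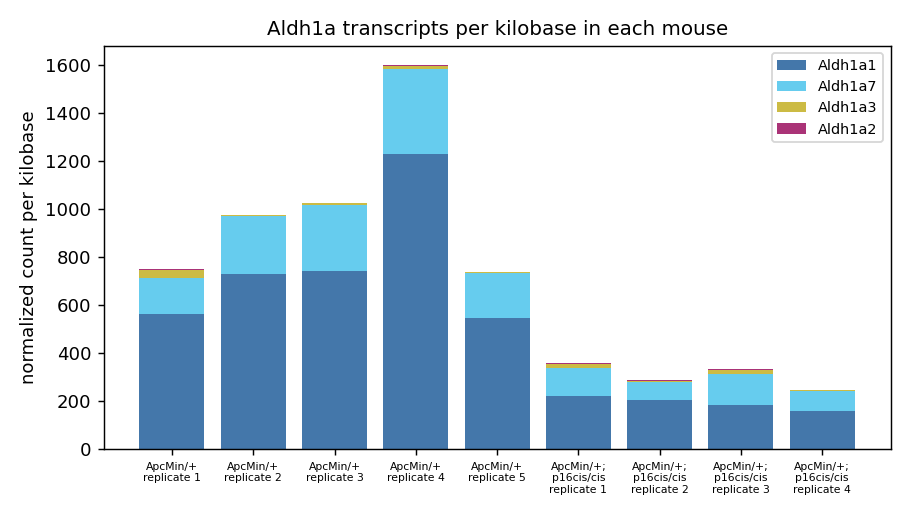
Normalized count per kilobase of exons (y axis, linear, from 0) of the 4 Aldh1a genes, stacked, in each of the 9 mice (x axis). Aldh1a1 is the largest part of every bar, and the ApcMin/+; p16cis/cis bars, at 246 to 357, are all shorter than the ApcMin/+ bars, at 738 to 1598.

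Upstream of the Aldh1a step, Adh1 changed in the other direction. Adh1 (ENSMUSG00000074207.10; chromosome 3 from 138260991 to 138290698, plus strand), a class I alcohol dehydrogenase that oxidizes retinol and ethanol, had 23909, 18829, 17076, 31462 and 17212 normalized counts in ApcMin/+ mice and 35838, 31252, 36808 and 39470 in ApcMin/+; p16cis/cis mice. The genotypes overlapped by 1 mouse, ApcMin/+ replicate 4, which lay just above the lowest ApcMin/+; p16cis/cis mouse. Adh1 rose from 21698 ± 6122 (SD, n = 5) to 35842 ± 3424 (SD, n = 4), a log2 fold change of 0.76 (SE 0.19, 95% confidence interval 0.34 to 1.18, adjusted p = 0.0215), which is a fold of 1.69 and so under the fold threshold. The exact permutation p was 0.0238. The adjusted p of Adh1 passed 0.05 on leaving out ApcMin/+ replicate 2 (0.0549), ApcMin/+ replicate 3 (0.0597) or ApcMin/+; p16cis/cis replicate 4 (0.0666), and in females alone (0.0654), while the fold change stayed between 0.68 and 0.91. With the mitochondrial share as a covariate the Adh1 difference was 0.78 (adjusted p = 0.848). A listed antisense gene lies within Adh1, at means of 62.4 and 99.0 normalized counts, and whether the counting used strand is not given in the sources used here.

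The other members that act on retinol or make retinal did not pass the test. Rdh10, the retinol dehydrogenase that feeds retinoic acid synthesis in the embryo, had 581, 623, 557, 590 and 434 normalized counts in ApcMin/+ mice and 409, 397, 520 and 431 in ApcMin/+; p16cis/cis mice. The difference was -0.34 (SE 0.13, adjusted p = 0.099, exact permutation p = 0.0476), and without ApcMin/+ replicate 5, the lowest of its genotype, it was -0.43 (adjusted p = 0.0378). With any other single mouse left out, the adjusted p of Rdh10 stayed over 0.05 and reached 0.224. Dhrs9, another retinol dehydrogenase of epithelia, had 275, 117, 281, 330 and 341 against 101, 198, 233 and 121 normalized counts. All ApcMin/+ mice except replicate 2 were above the 4 ApcMin/+; p16cis/cis mice, and the difference was -0.71 (SE 0.33, adjusted p = 0.156, exact permutation p = 0.143) with that mouse and -0.98 (adjusted p = 0.0361) without it. The adjusted p of Dhrs9 stayed over 0.05 in every other fit without 1 mouse and reached 0.338. Bco1 was low in every mouse, at 51.3, 42.8, 35.1, 53.4 and 72.6 against 61.9, 52.6, 52.6 and 78.3 normalized counts. Its difference of 0.28 had a 95% confidence interval from -0.26 to 0.83 (adjusted p = 0.47).

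Dhrs3, the reductase that returns retinal to retinol and is itself induced by retinoic acid, had 1000, 937, 1127, 1724 and 743 normalized counts in ApcMin/+ mice and 1738, 1243, 1292 and 1518 in ApcMin/+; p16cis/cis mice. All ApcMin/+; p16cis/cis mice were above 4 of the 5 ApcMin/+ mice, and the difference was 0.43 (SE 0.20, adjusted p = 0.159, exact permutation p = 0.127). Without ApcMin/+ replicate 4 it was 0.61 (adjusted p = 0.0118). Rbp2 had 404, 239, 516, 1352 and 257 normalized counts in ApcMin/+ mice against 227, 222, 325 and 451, and ApcMin/+ replicate 4 stood well above the rest. Its difference of -0.60 (SE 0.43) had a 95% confidence interval from -1.54 to 0.34 (adjusted p = 0.366), and single mice moved it between -0.82 and -0.20.

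**Figure D3:**
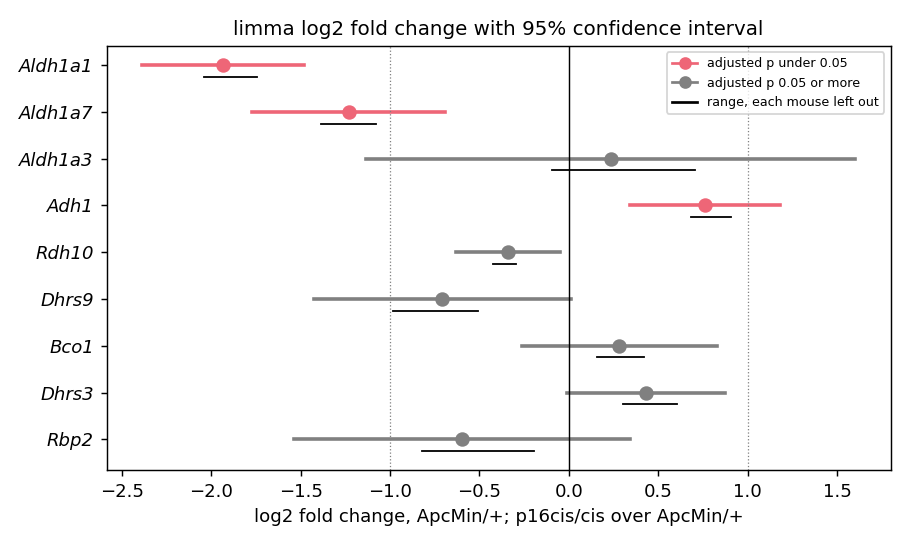
Log2 fold change of ApcMin/+; p16cis/cis over ApcMin/+ mice (x axis) for the 9 members tested, with 95% confidence intervals in color (red, adjusted p under 0.05; grey, 0.05 or more), the range over fits that leave out 1 mouse as a thin black line, and dotted lines at a fold of 2. Aldh1a1 (-1.93) and Aldh1a7 (-1.23) lie beyond the dotted line, Adh1 (0.76) lies between 0 and the line on the other side, and the Aldh1a3 range crosses 0.

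The members covered a wide range of levels. Exonic length is again the union of annotated exons, so the order of members close in level depends on that choice. Per kilobase of exons, Adh1 was the highest member in both genotypes, at 9717 ± 2742 normalized counts in ApcMin/+ mice (SD, n = 5) and 16051 ± 1533 in ApcMin/+; p16cis/cis mice (SD, n = 4), above every other member in every mouse. In ApcMin/+ mice Aldh1a1 was next at 762, followed by Rbp2 at 575, Dhrs3 at 378 and Aldh1a7 at 241, and each of these overlapped the next in that order. Rdh10, at 134, lay below the range of Aldh1a7. In ApcMin/+; p16cis/cis mice the order was Dhrs3 at 495, Rbp2 at 318, Aldh1a1 at 192, Rdh10 at 106 and Aldh1a7 at 101, and Aldh1a1 overlapped neither Rbp2 above it nor Rdh10 below it. Dhrs9, Bco1, Aldh1a3 and Aldh1a2 closed the order in both genotypes, from 62.8 to 2.33 and from 38.1 to 1.30. The ratio of Adh1 to Aldh1a1 per kilobase was 10.3 to 19.0 in ApcMin/+ mice and 68.8 to 110 in ApcMin/+; p16cis/cis mice. That of Dhrs3 to Rdh10, enzymes of opposite direction, was 2.81 ± 0.80 (SD, n = 5) and 4.76 ± 1.05 (SD, n = 4).

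ApcMin/+ replicate 4, a male, was the highest mouse of its genotype for Aldh1a1, Aldh1a7, Adh1, Dhrs3 and Rbp2. Over the 9 mice Aldh1a7 was the member most like Aldh1a1 (Pearson r = 0.93 of the log2 values), which includes the difference between the genotypes. For deviations from the genotype means, which leave that difference out, the r with Aldh1a1 was 0.83 for Dhrs3, 0.76 for Aldh1a7, 0.60 for Rbp2 and 0.54 for Adh1. Without ApcMin/+ replicate 4 these values were 0.46, 0.62, -0.30 and -0.48, so the likeness of Rbp2 and Adh1 to Aldh1a1 rested on that mouse. Outside the members, the 5 genes most like Aldh1a1 over the 9 mice were Hsd17b4, an enzyme of peroxisomal β-oxidation, Rragc, a GTPase of nutrient sensing, Slc35d1, a nucleotide sugar transporter, Tmem144 and the cytochrome P450 gene Cyp4b1, with r from 0.98 to 0.99. Their log2 fold changes lay between -0.28 for Rragc and -3.45 for Cyp4b1. By deviations from the genotype means the 5 most alike were Adh5, Ociad1, Ccz1, Kdm4a and Camk2b, with r from 0.95 to 0.97, or 0.83 to 0.91 without ApcMin/+ replicate 4, and none of them passed the genotype test. These correlations rest on 9 mice whose genotype, sex and library depth are shared by all genes, and they are given as descriptions.

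The neighbors of the pair on chromosome 19 were examined as well. The table listed 8 genes within 500000 bases of the Aldh1a1 and Aldh1a7 pair or as part of it, and 4 could be tested. Of the remaining pair, Anxa1, the gene of annexin A1, had a log2 fold change of -0.25 (adjusted p = 0.394) and Tmc1 one of -0.48 (SE 0.46, adjusted p = 0.508) at means of 13.7 and 10.1 normalized counts. Both means were lower in ApcMin/+; p16cis/cis mice without passing the test, and whether they differ from the Aldh1a pair was not tested.

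The wider retinoid pathway was read through 52 further genes for uptake, storage, transport, oxidation, binding, breakdown and receptors, of which 37 were tested. At an adjusted p under 0.05, 5 of them were lower and 5 higher, beside 8.75% and 8.14% of all genes tested. With a fold over 2 as well, 3 were called lower and 0 higher, beside 1.64% and 1.83% of all genes. The median log2 fold change was 0.01. The 3 called genes were Lrat, which esterifies retinol for storage, Isx, the intestinal homeobox factor that represses Bco1 and Scarb1, and the retinol dehydrogenase Rdh1. Lrat had 152, 131, 125.8, 125 and 176 normalized counts in ApcMin/+ mice and 75.8, 81.4, 81.1 and 26.6 in ApcMin/+; p16cis/cis mice, and it fell by 1.20 on the log2 scale (adjusted p = 0.0227). Isx had 1310, 1695, 2379, 3315 and 1624 against 1082, 890, 1065 and 611 and fell by 1.13 (adjusted p = 0.0126). Rdh1 had 94.8, 96.0, 96.6, 69.9 and 114 against 58.1, 35.1, 54.1 and 21.9 and fell by 1.22 (adjusted p = 0.0166). A gap between the genotypes with ApcMin/+; p16cis/cis mice lower was found for 8.95% of all genes tested. The 3 genes were named because they were called, and for none of them did the genotypes overlap. Their fold came under 2 without ApcMin/+; p16cis/cis replicate 4, at -0.82 for Lrat, -0.95 for Isx and -0.94 for Rdh1. That of Isx also did so without ApcMin/+ replicate 4, at -0.94. The adjusted p of all 3 stayed under 0.05 with any 1 mouse left out. Among females only, the limma adjusted p was 0.0862 for Lrat (-1.52), 0.0692 for Isx (-0.81) and 0.0605 for Rdh1 (-1.55). With sex as a covariate Isx was -0.93 (adjusted p = 0.0270). Bco1 and Scarb1, the targets of Isx named above, did not pass the test, at 0.28 (adjusted p = 0.47) and -0.34 (adjusted p = 0.194).

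The pathway genes that passed at a fold under 2 are named after their values were seen. Lower were the lipoprotein lipase Lpl at -0.63 and the retinol dehydrogenase Rdh14 at -0.74. Higher were the retinol transporters Rbp4 at 0.86 and Ttr at 0.63, the retinol-binding protein receptor homolog Stra6l at 0.61, the aldo-keto reductase Akr1b3 at 0.45 and the retinoic acid receptor Rara at 0.78. With 1 mouse left out, Rdh14 and Rara stayed under an adjusted p of 0.05 in all 9 fits. The adjusted p of the others reached 0.133 for Lpl, 0.0531 for Rbp4, 0.0937 for Ttr, 0.111 for Stra6l and 0.1003 for Akr1b3. The limma fit of females only gave an adjusted p of 0.0787 for Rdh14 and 0.0488 for Rara. Rara had 477 to 763 normalized counts in ApcMin/+ and 952 to 1157 in ApcMin/+; p16cis/cis mice, with no overlap. Such a gap in this direction was found for 7.24% of all genes tested. In contrast Rarg (0.04) and the partners Rxra (-0.29) and Rxrb (0.24) did not pass, with adjusted p between 0.0772 and 0.895. Of 7 genes whose products clear or carry retinoic acid 2 were tested, and neither passed. They were the cytochrome P450 gene Cyp2s1, at -0.27 (adjusted p = 0.47), and the fatty acid-binding protein Fabp5, at -0.70 (adjusted p = 0.113). The other 5, Cyp26a1, Cyp26b1, Cyp26c1, Crabp1 and Crabp2, had at most 7 reads in any mouse, so that a change in them was not detectable at this depth.

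Genes known to respond to retinoic acid showed no shared direction. Of 21 such genes 13 were tested. At an adjusted p under 0.05, 2 were lower (Lrat and Isx, also counted above), beside 8.75% of all genes tested. In the list 1 was higher (Hoxa5, at 0.83), beside 8.14%, and the median was -0.15. Dhrs3, a member, is in this list as well. Cyp26a1 and Rarb, which retinoic acid induces in many cells, had at most 3 and 2 reads per mouse, and Hoxb1 and Stra8 were at 0 in all 9 mice. Of 17 aldehyde dehydrogenases outside the Aldh1a genes 14 were tested and 2 were lower at that adjusted p, again beside 8.75% of all genes. They were Aldh3a2, the fatty aldehyde dehydrogenase, at -0.43 and Aldh9a1 at -0.36, both under a fold of 2. With 1 mouse left out their adjusted p reached 0.0731 and 0.122. The median of these 14 was -0.22. Aldh2 and Aldh1b1, the mitochondrial members with the highest counts, differed by 0.11 (adjusted p = 0.656) and -0.11 (adjusted p = 0.629).

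**Figure D4:**
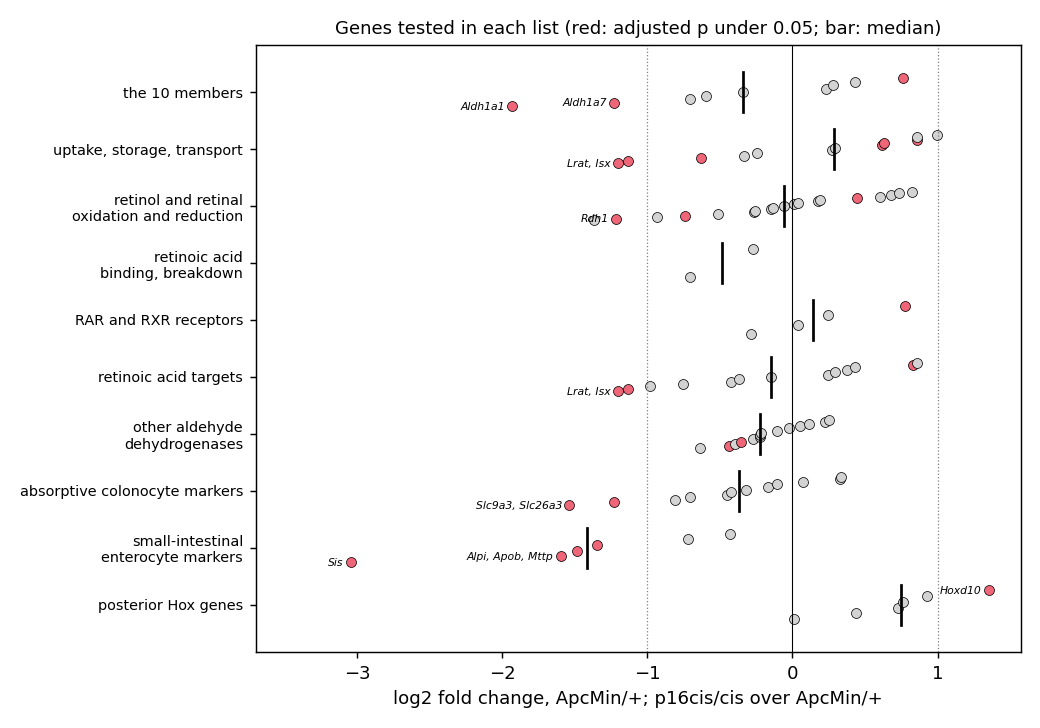
Log2 fold change of ApcMin/+; p16cis/cis over ApcMin/+ mice (x axis) of every gene tested in the 10 members and in 9 lists (y axis), with red points for an adjusted p under 0.05, grey points for the others, a black bar at each median and dotted lines at a fold of 2; points are spread vertically for sight only. Aldh1a1 (-1.93) is the lowest of the members and pathway genes, and the medians drawn run from -1.42 for the small-intestinal enterocyte markers to 0.75 for the posterior Hox genes; marker lists of other cell types are not drawn.

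Cell type markers were examined because the members are expressed in particular epithelial cells. For the counts below, 1.64% of all genes tested were called lower and 1.83% higher. At an adjusted p under 0.05 alone, 8.14% of all genes were higher. All 12 absorptive colonocyte markers could be tested. Their summed normalized counts were 275911 to 563425 in ApcMin/+ and 288936 to 438241 in ApcMin/+; p16cis/cis mice. Of these markers 2 were called lower, the chloride and bicarbonate exchanger Slc26a3 (-1.23) and the sodium and hydrogen exchanger Slc9a3 (-1.54), and the median was -0.37. Among 9 markers of small-intestinal enterocytes 6 were tested and 4 were called lower, Alpi (-1.60), Sis (-3.04), Apob (-1.49) and Mttp (-1.34). Their summed counts were 7180 to 15752 in ApcMin/+ mice and 3604 to 6137 in ApcMin/+; p16cis/cis mice, without overlap. In ApcMin/+ mice Apob had at least 1762 reads and Alpi at least 570, whereas Lct, Apoa4 and Apoa1 had at most 5, 15 and 68 reads. Of 6 Hox genes of the posterior colon 1, Hoxd10, was called higher (1.35), and the median was 0.75. Connective tissue markers had a median of -1.44 over 9 tested, with Col3a1 called lower (-2.92), and lymphoid markers one of -1.03 over 8 tested, with Jchain called lower (-2.65). Summed counts of the connective tissue markers were 179 to 801 in ApcMin/+ and 111 to 274 in ApcMin/+; p16cis/cis mice. Those of the lymphoid markers were 96.6 to 1855 and 265 to 458, so both overlapped. Reads in ApcMin/+; p16cis/cis mice were few, at most 10 for Col3a1, 12 for Jchain and 13 for Sis. Lyz2 (-1.56) was called lower among 7 myeloid markers, Chgb (-1.11) among 7 enteroendocrine and tuft markers, and Spink4 (1.41) higher among 8 goblet markers. The medians of these lists were -0.44, 0.29 and 0.26. Log2 fold changes were above 0 for 2 of the 7 myeloid markers and 4 of the 7 enteroendocrine and tuft markers. Of 8 stem and cycling markers 1, Mki67 (0.92), was higher at an adjusted p under 0.05. Several of these calls did not hold with 1 mouse left out. Without ApcMin/+ replicate 3 the adjusted p was over 0.05 for Alpi, Mttp, Slc9a3, Col3a1 and Hoxd10, and without ApcMin/+; p16cis/cis replicate 4 for all of these except Slc9a3. Other single mice did the same for Alpi (ApcMin/+; p16cis/cis replicates 1 and 2), Mttp (its replicates 2 and 3), Slc9a3 (its replicate 2), Col3a1 (its replicate 1 and ApcMin/+ replicates 1, 2 and 5) and Hoxd10 (its replicates 1 to 3 and ApcMin/+ replicates 2 and 5). The highest adjusted p was 0.0628 for Alpi, 0.0645 for Mttp, 0.0600 for Slc9a3, 0.110 for Col3a1 and 0.107 for Hoxd10, and the fold of Chgb came under 2 without ApcMin/+ replicate 2 (-0.99). Sis, Apob, Slc26a3, Lyz2, Jchain and Spink4 kept both thresholds in all 9 fits. When only females were compared, the limma adjusted p was 0.0527 for Sis, 0.0728 for Chgb (-0.68) and 0.135 for Slc26a3 (-0.77). Apob, Lyz2, Jchain and Spink4 kept both thresholds there. The part of these cell types in the lower Aldh1a1, Aldh1a7, Lrat and Isx was not tested.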

How the data were processed

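RNA-seq was analyzed in 9 mice. Per the study's methods, crypt RNA was sequenced on the BGISEQ-500 platform, aligned with BOWTIE2, counted with RSEM and compared with DESeq2; versions, genome build and annotation are not given in the sources used here. The authors deposited 1 table of signal values, normalized counts made by dividing reads by each mouse's size factor, and 100% of positive values were whole reads within 0.01 reads once the size factor was removed. Of 54146 identifiers 52480 matched GENCODE M21 (GRCm38) with their version and 54079 without it, and positions and exonic lengths came from there.

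The main test was limma 3.58.1 (R 4.3.3) on log2(normalized count + 1), with a variance trend, no covariate and Benjamini-Hochberg adjustment over 14410 genes; the procedure was tested on simulated data. Alternatives were edgeR 4.0.16 and DESeq2 1.42.0 tests of the recovered reads, other scalings, filters and pseudocounts, sex or mitochondrial share as a covariate, females only, a replicate block and each mouse left out. Leaving out mice for the listed genes, and ApcMin/+ replicate 4 for the correlations, was chosen after seeing the data. Sequences were compared with Biopython 1.88. Intervals cover only the spread between these mice.

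The members and gene lists were chosen with earlier results of these data known. All members are described, list genes were named when called, and the genes most like Aldh1a1 are the 5 with the highest Pearson correlation.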

Additional observations from a re-analysis of the deposited data

Results flagged for a closer look

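In 3 of the 20 sets of values that were checked, 1 gene in 1 genotype each, a single mouse stood apart from the others of its genotype by Dixon's test at the 95% level, which chance alone gives in about 1 of 20 sets. Aldh1a1 was 6072 in ApcMin/+ replicate 4, while the other 4 ApcMin/+ mice lay between 2699 and 3660. Without this mouse the log2 fold change of Aldh1a1 was -1.75 (limma adjusted p = 1.73e-05). Rbp2 was 1352 in the same mouse, against 239 to 516 in the others, and without it the Rbp2 difference was -0.20. Aldh1a2 was 13.4 in ApcMin/+ replicate 1, which rests on 12 reads, against 1.90 to 3.90.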

How the results depend on the processing

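Aldh1a1 and Aldh1a7 were lower under all 20 alternatives. Aldh1a1 stayed past an adjusted p of 0.05 in 19 of them and Aldh1a7 in 18, the exceptions being the mitochondrial share as a covariate for both and females only for Aldh1a7. Members called lower numbered 2, but 0 with the mitochondrial share as a covariate, and 1 (Aldh1a1) in females only or with Bonferroni adjustment. Members called higher numbered 0, or 1 (Adh1) without the fold threshold. Across all genes, 237 were called lower. The DESeq2 Wald test, with p-values for 29936 genes, called 430 lower, and limma without the filter on low values called 302 among 29946 genes. There were 104 in females only and 0 with the mitochondrial share as a covariate. In that last fit 798 genes had an unadjusted limma p under 0.05, and no other tool was run with the share. For genes called higher the count was 264, 175 with at least 10 counts in every mouse, 158 with sex as a covariate and 0 with the mitochondrial share. Leaving out single mice gave 144 to 432 lower calls, the ends being without ApcMin/+ replicates 3 and 4, with 150 without ApcMin/+; p16cis/cis replicate 4. It gave 131 to 323 higher calls, with 165 without ApcMin/+ replicate 3, 151 without ApcMin/+; p16cis/cis replicate 2 and the lowest without its replicate 4. Aldh1a3 turned from 0.23 to -0.014 with edgeR, -0.018 with DESeq2 and -0.45 in females, and lay between -0.10 and 0.71 with single mice left out. Bco1 turned from 0.28 to -0.081 with the mitochondrial share and -0.023 in females. The causes were not tested.

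The replicate numbers name different mice, and same-numbered mice correlated at -0.18, 0.07, 0.05 and 0.14 in their deviations from the genotype means, so they were not used as pairs. With a replicate block there were 234 genes lower and 239 higher, Aldh1a1 was -2.04 and Aldh1a3 -0.0082, and Rbp2 came to -0.80 (adjusted p = 0.043). The block changed no other call among the members.

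Depth limits Aldh1a2, the Cyp26 genes and Rarb, which had too few reads to be tested.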
